A study of Homo sapiens with 6 samples.

Results

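The genes described here encode the classical high mobility group (HMG) proteins: *HMGA1* and *HMGA2*, *HMGB1*, *HMGB2* and *HMGB3*, and *HMGN1* to *HMGN5*. They are 10 of the 58676 gene identifiers in a count table from MRC5 cells, an established line of human fetal lung fibroblasts, and were found by matching identifiers to GENCODE 44 symbols. The family was chosen by a measured value, the p of *HMGA1*, which was the smallest among the genes lower in the same contrast in an earlier analysis of these libraries, so the *HMGA1* values are given as a description without a test, and results for the other 9 genes were known when they were listed. MRC5 cells were kept for 24 h in conditioned medium (CM) of ATIIER:KRASV12 cells, a human alveolar type II epithelial line carrying a RAS transgene that 4-hydroxytamoxifen (4-OHT) switches on. In the control ATII CM group (3 libraries) the medium came from ATIIER:KRASV12 cells without 4-OHT, and in the 4-OHT ATII CM group (3 libraries) from the same line treated with 4-OHT. The comparison asks which fibroblast transcripts differ between the media. Both groups share the fibroblast line and the epithelial transgene. With no group given 4-OHT alone, an effect of 4-OHT left in the medium and an effect of RAS-induced secretion cannot be told apart. The model is 1 fibroblast line and 1 epithelial line, and nothing in the labels says that the 3 libraries of a group came from separate cultures, so that p-values measure only the spread between these libraries.

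HMG proteins are abundant chromatin proteins that are not histones. HMGA proteins grip the minor groove of AT-rich DNA through AT-hooks and help to assemble enhancer complexes; they are plentiful in embryonic and dividing cells and scarce in most adult tissue, and in senescent fibroblasts they accumulate in condensed heterochromatin foci. HMGB proteins bend DNA with HMG boxes, and HMGB1 that leaves the cell acts as a danger signal through receptors such as AGER and TLR4. HMGN proteins bind the nucleosome itself and compete with linker histone H1.

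Total counts ran from 17691849 to 26389449 per library, and control ATII CM replicate 2, the shallowest, stood apart from the other libraries on the first principal component. All 9 fibroblast markers were abundant, and their summed level, mostly *COL1A1* and *COL1A2*, was 41020 to 44535 normalised counts (CPM, counts scaled to the same library size) in control ATII CM and 42888 to 44629 CPM in 4-OHT ATII CM. Within the list *COL3A1*, *DCN*, *LUM* and *PDGFRA* were higher in 4-OHT ATII CM (log2 fold changes of 0.18, 0.33, 0.29 and 0.22; edgeR adjusted p from 2.66e-06 to 0.00343). *VIM* was lower by edgeR (log2 fold change −0.10, adjusted p = 0.0414), a call lost in 6 of 14 alternative settings, among them without control ATII CM replicate 3 or any one of the 4-OHT libraries. The 11 epithelial markers together made up 10.4 to 11.8 CPM and 8.58 to 10.2 CPM, with *KRT5*, *SFTPA1* and *NKX2-1* at 0 counts in all 6 libraries. The 4 endothelial markers together stayed at or below 0.56 CPM and the 4 immune markers at or below 0.112 CPM. Of 19072 genes tested between the groups with edgeR, 5.72% passed an adjusted p of 0.05 in either direction, 2.76% passed it as lower in 4-OHT ATII CM, and 22.1% had groups of 3 libraries that did not overlap in CPM. All 10 HMG genes were tested. *HMGA2*, *HMGB2* and *HMGN2* passed as lower, and none of the 4 genes with a log2 fold change above 0 passed by edgeR, DESeq2 or limma-voom (1 of them, *HMGN1*, had an unadjusted p below 0.05 in edgeR). In 7 of the 10 genes the groups did not overlap. Because results of this contrast chose the family, nothing is read from these counts against the background shares.

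*HMGA1* (ENSG00000137309, chr6:34236873-34246231, plus strand, GRCh38) had the most counts of the 10 genes and the largest difference between the groups. Its level was 659.8, 724 and 707 CPM in the 3 control ATII CM libraries and 504, 484 and 495 CPM in the 3 4-OHT ATII CM libraries. All 3 control libraries lay above all 3 4-OHT libraries, and the gap between the groups was wider than the whole range within either. The means were 697 ± 33.3 CPM (SD, n = 3) and 494 ± 9.91 CPM (SD, n = 3), which is a log2 fold change of −0.50 (SE 0.0356) from control to 4-OHT ATII CM. In bulk RNA such a difference can be fewer cells with high *HMGA1* or less *HMGA1* RNA per cell, and these cannot be told apart. Leaving out each library in turn kept the *HMGA1* log2 fold change between −0.54 and −0.47. The same libraries led to the choice of *HMGA1*, so its separation and this range are a description and no independent support.

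**Figure D1:**
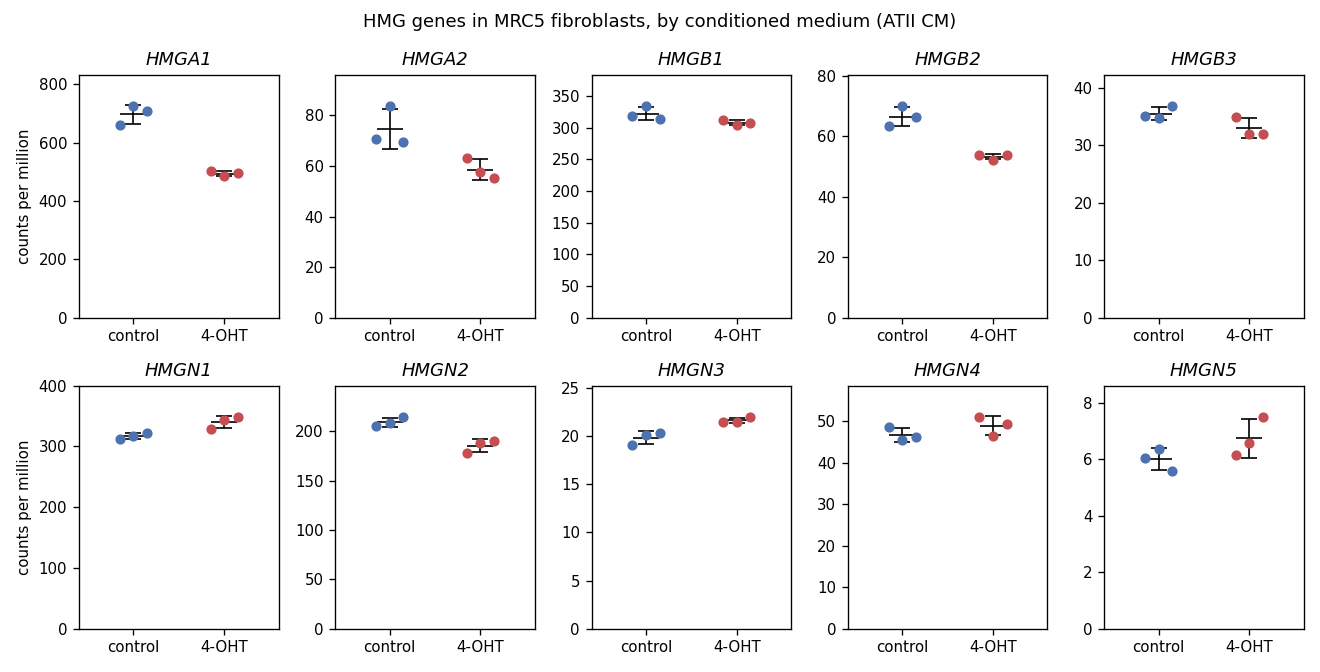
CPM (vertical axis, from 0) of the 10 HMG genes in each MRC5 library, with control ATII CM in blue and 4-OHT ATII CM in red; bars are the mean ± SD of 3 libraries. *HMGA1*, *HMGA2*, *HMGB2* and *HMGN2* sit lower in all 3 4-OHT libraries, while the points of *HMGB3*, *HMGN4* and *HMGN5* overlap between the groups.

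The bases upstream of the *HMGA1* starts are shown because the transcript carries the family's largest difference. RefSeq promoter windows (GRCh38) begin 250 bases before a start site and are printed up to the base before it, on the gene's strand. Capitals mark matches on either strand to the GC box (GGGCGG), to the CCAAT box (CCAAT) or to the E-box (CACGTG), which are the motifs of Sp1-type factors, of NF-Y and of MYC-type factors. The *HMGN2* window, that of another HMG gene lower in 4-OHT ATII CM, stands beside them.
HMGA1 first start, chr6:34236623-34236872, plus strand: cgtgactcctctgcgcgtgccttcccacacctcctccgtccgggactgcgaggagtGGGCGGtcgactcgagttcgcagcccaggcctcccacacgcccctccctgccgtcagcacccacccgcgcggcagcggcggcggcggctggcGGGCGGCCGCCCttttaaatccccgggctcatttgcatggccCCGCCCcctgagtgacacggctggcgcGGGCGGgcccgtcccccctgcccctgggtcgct
HMGA1 second start, chr6:34238541-34238790, plus strand: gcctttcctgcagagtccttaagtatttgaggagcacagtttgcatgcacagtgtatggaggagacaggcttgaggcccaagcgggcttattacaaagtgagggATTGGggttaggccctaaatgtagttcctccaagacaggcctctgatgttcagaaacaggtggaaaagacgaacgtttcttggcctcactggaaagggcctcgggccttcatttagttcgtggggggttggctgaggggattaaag
HMGN2, chr1:26472190-26472439, plus strand: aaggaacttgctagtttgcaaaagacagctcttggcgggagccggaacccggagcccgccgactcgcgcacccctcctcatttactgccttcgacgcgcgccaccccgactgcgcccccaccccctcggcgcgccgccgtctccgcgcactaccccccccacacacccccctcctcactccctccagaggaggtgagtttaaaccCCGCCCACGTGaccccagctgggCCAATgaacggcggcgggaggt
The first *HMGA1* window is 74.8% G and C and holds 5 GC boxes, and the second, 51.2% G and C, holds none and has 1 CCAAT box. The *HMGN2* window holds 1 GC box overlapping 1 E-box, and 1 CCAAT box. Among all 34943 RefSeq promoter windows of this length, 42.5% held a GC box, 32.0% a CCAAT box and 6.32% an E-box. HMG genes that did not pass held GC boxes too, up to 9 in a window of *HMGB1*, up to 10 in *HMGB3*, 4 in *HMGN1* and 3 in *HMGN4*. The *HMGN3* and *HMGN5* windows held none. CCAAT boxes were in windows of *HMGB1*, *HMGB3*, *HMGN1* and *HMGN3*, and not in those of *HMGN4* and *HMGN5*.

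A search of the same windows for the TATA box (TATAAA), the AP-1 site (TGANTCA), the E2F site (TTTCGCGC or TTTGGCGC) and the CHR element (TTTGAA) covered the 12 windows of 8 HMG genes. The CHR element, a motif of genes switched on in G2 and mitosis, matched in 1 of the *HMGB1* windows and 1 of the *HMGB3* windows, and in 13.4% of all windows. The letters of the TATA box, AP-1 site and E2F site were in none of the 12 windows, against 10.8%, 6.59% and 0.956% of all windows. *HMGA2* and *HMGB2* were not in the promoter table.

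*HMGA2* (ENSG00000149948, chr12:65824131-65966295, plus strand), the embryonic paralogue of *HMGA1*, also fell. It was at 70.8, 83.5 and 69.3 CPM in control ATII CM and at 62.9, 57.7 and 55.1 CPM in 4-OHT ATII CM. The groups did not overlap, but the highest control library, replicate 2, was the shallow one. Means were 74.5 ± 7.8 CPM and 58.6 ± 4.01 CPM (SD, n = 3 each), and *HMGA2* fell by 0.35 on the log2 scale (SE 0.0638, edgeR adjusted p = 0.00388). Without any one library it ran from −0.40 to −0.26 and stayed below the threshold of 0.05 each time. An antisense gene, *HMGA2-AS1*, shares 384 of the 15403 exon bases of *HMGA2* and had at most 3 counts in a library.

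let-7 microRNAs are the best known repressors of HMGA2, and their binding sites were sought in the 3′ UTRs of the HMG genes. The 9 mature RNAs of the let-7 family in the RefSeq table, miR-98 included, share 1 seed (bases 2 to 8, in capitals), and its complement CTACCTC is in capitals in each site below. Sites are printed with the bases just upstream, on the gene's strand in GRCh38.
hsa-let-7a-5p: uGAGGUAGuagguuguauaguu
HMGA1 site, chr6:34245829-34245851: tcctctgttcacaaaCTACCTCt
HMGA2 site 1, chr12:65963298-65963320: gccaacgttcgatttCTACCTCa
HMGA2 site 2, chr12:65964533-65964555: ccccactactcaataCTACCTCt
HMGA2 site 3, chr12:65964945-65964967: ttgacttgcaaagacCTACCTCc
HMGA2 site 4, chr12:65965798-65965820: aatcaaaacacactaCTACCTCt
The *HMGA2* 3′ UTR (2999 bases) holds 4 such sites and that of *HMGA1* (1347 bases) holds 1. The other 8 HMG genes hold none. Among 3′ UTRs within a factor of 1.25 of their lengths, 3.21% (*HMGN3*) to 23.7% (*HMGB1*) held a site, so that having none is the usual case. At least 1 site was found in 9.76% of 19550 canonical 3′ UTRs, in 14.8% of those within a factor of 1.25 of the *HMGA2* length and in 8.82% of those near the *HMGA1* length, and 12 of the 19550, *HMGA2* among them, held at least 4. Mature miRNAs were not measured in these poly(A) libraries.

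A further list joined regulators of the HMGA genes with genes tied to let-7 and to HMGA, and 15 of its genes were tested. *FOSL1*, *E2F1* and *MYC* were lower in 4-OHT ATII CM and 12 did not pass. The list's median log2 fold change was −0.05 against −0.00204 for all genes tested. *FOSL1*, an AP-1 subunit, fell from 88.1 ± 4.71 CPM to 64.6 ± 0.64 CPM (SD, n = 3 each; log2 fold change −0.45, SE 0.0428, edgeR adjusted p = 2.04e-05). *E2F1*, which drives entry into S phase, fell from 11.5 ± 1.34 CPM to 8.2 ± 0.972 CPM (log2 fold change −0.48, SE 0.108, edgeR adjusted p = 0.0139). *MYC* had a small difference (log2 fold change −0.18, edgeR adjusted p = 0.0379), and its call was lost with any single library left out, with DESeq2 and with the replicate block. *E2F1* lost its call without 4-OHT ATII CM replicate 2 or replicate 3. Of the let-7 side, *LIN28B*, which blocks let-7 maturation, had 0 counts in all 6 libraries and *LIN28A* 1 count in 1 library. The let-7 host transcripts *MIRLET7BHG*, *MIR100HG* and *MIR99AHG* had log2 fold changes of −0.15, 0.01 and 0.68, with edgeR adjusted p of 0.796, 0.891 and 0.272. *IGF2BP1*, *IGF2BP2* and *IGF2BP3*, RNA-binding proteins of the same fetal programme, did not pass the threshold.

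In senescent fibroblasts HMGA proteins act with histone chaperones, HP1 proteins and the RB pathway, so these partners were examined as a list of 13 genes, all tested. *LMNB1* and *CBX5* were lower, 11 did not pass, and the list's median log2 fold change was −0.01. *LMNB1*, the lamin B1 of the nuclear envelope, fell from 34.2 ± 0.923 CPM to 23.8 ± 0.788 CPM (log2 fold change −0.52, SE 0.0534, edgeR adjusted p = 3.01e-05), a call kept with each library left out in turn. *CBX5*, which encodes HP1α, fell by 0.19 on the log2 scale (edgeR adjusted p = 0.0243) and lost its call without any one of 4 libraries, namely control ATII CM replicate 1 or 3 and 4-OHT ATII CM replicate 2 or 3. *CDKN2A*, which encodes the inhibitor p16, had a log2 fold change of −0.18 (edgeR adjusted p = 0.0855), and *RB1* one of −0.01 (edgeR adjusted p = 0.931). *CDKN1A*, which encodes p21, passed the threshold as higher only without control ATII CM replicate 2.

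Among 9 other AT-hook genes, *PRR12* and *KMT2A* were lower and 7 did not pass, with a list median of −0.09. *PRR12* fell by 0.21 on the log2 scale (edgeR adjusted p = 0.00958). *KMT2A*, a histone H3 methyltransferase, had a log2 fold change of −0.36 (edgeR adjusted p = 0.0325), a call that was lost with DESeq2 and when any library other than control ATII CM replicate 2 was left out. Without 4-OHT ATII CM replicate 3, *PRR12* lost its call too.

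The HMGB genes divided. *HMGB2* (ENSG00000164104, chr4:173331695-173335125, minus strand), the HMGB gene most tied to cell division, was at 63.4, 69.8 and 66.3 CPM in control ATII CM and at 53.6, 52.3 and 53.7 CPM in 4-OHT ATII CM. The 3 4-OHT libraries lay close together and below every control library. The log2 fold change was −0.32 (SE 0.0425, edgeR adjusted p = 0.000283) between means of 66.5 ± 3.22 CPM and 53.2 ± 0.787 CPM (SD, n = 3 each), and it stayed between −0.36 and −0.29 with each library left out.

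*HMGB1* (ENSG00000189403, chr13:30456704-30617597, minus strand) was at 319, 334 and 314 CPM in control ATII CM and at 313, 305 and 307 CPM in 4-OHT ATII CM. The groups did not overlap but almost touched, and the log2 fold change of −0.06 (SE 0.0332, edgeR adjusted p = 0.344) did not pass the threshold and was −0.04 without control ATII CM replicate 2. *HMGB3* (ENSG00000029993, chrX:150980509-150990775, plus strand), another HMG-box paralogue, was at 35.1, 34.7 and 36.8 CPM and at 35.0, 32.0 and 32.0 CPM, with overlapping groups and a log2 fold change of −0.11 (SE 0.0527, edgeR adjusted p = 0.299). Over aligned coding bases *HMGB1* was 78.2% identical to *HMGB2* and 75.5% to *HMGB3*. Within a library, the *HMGB2* count was 0.206 ± 0.00662 of the *HMGB1* count in control ATII CM and 0.173 ± 0.00184 in 4-OHT ATII CM (SD, n = 3 each), with no overlap, and this ratio does not depend on how libraries were scaled.

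**Figure D2:**
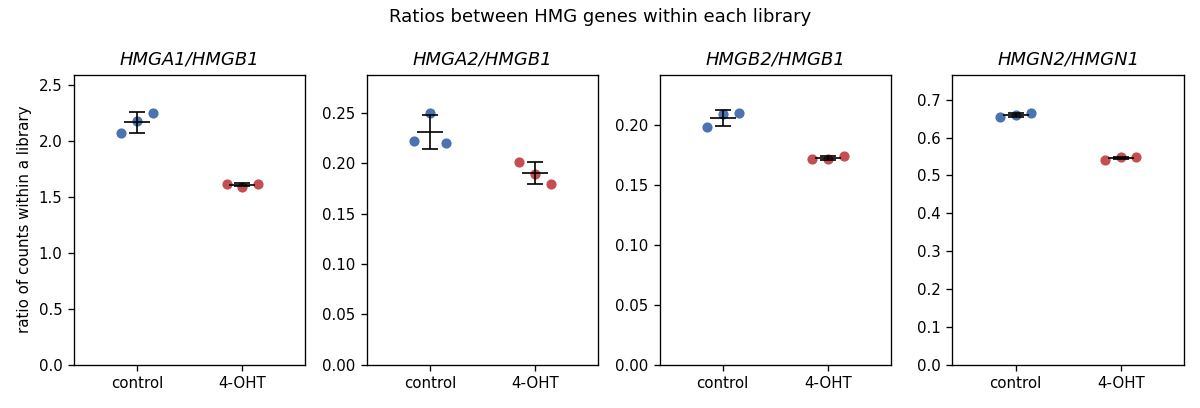
Ratio of the counts of 2 HMG genes within each MRC5 library (vertical axes, from 0), with control ATII CM in blue, 4-OHT ATII CM in red and bars for the mean ± SD of 3 libraries. The *HMGA1*, *HMGA2* and *HMGB2* counts relative to *HMGB1*, and *HMGN2* relative to *HMGN1*, were lower in every 4-OHT library.

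Few receptor genes of HMGB1 could be measured. Of 14 receptors and extracellular partners of HMGB1, 9 could be tested and *CXCL12* alone passed, rising from 20.4 ± 1.43 CPM to 27.6 ± 1.04 CPM (log2 fold change 0.44, SE 0.0646, edgeR adjusted p = 0.000672), while the list's median was −0.05. CXCL12 is a chemokine that binds HMGB1 in its reduced form. *TLR4*, *CXCR4* and *TREM1* had 0 counts in all 6 libraries, where 0 allows up to 3 counts in a library, and *AGER* had 5 to 9 counts. *CD14*, a co-receptor of TLR4, was low at 0.766 ± 0.178 CPM and 1.48 ± 0.409 CPM (log2 fold change 0.97, SE 0.283, edgeR adjusted p = 0.0597), and passed the threshold without control ATII CM replicate 2, without 4-OHT ATII CM replicate 1, or with no filter on low counts. Of 4 tested SET complex partners of HMGB2, the nuclease and kinase gene *NME1* fell by 0.20 on the log2 scale (edgeR adjusted p = 0.0203), a call lost without any one of the 4-OHT libraries, and *SET*, *APEX1* and *ANP32A* lay between −0.01 and 0.02.

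HMG boxes also occur in transcription factors and remodelling subunits, and of 27 such genes tested *SOX4* and *HBP1* were higher, *WDHD1* was lower and 24 did not pass. *SOX4*, a developmental transcription factor, rose from 241 ± 6.28 CPM to 303 ± 10.1 CPM (log2 fold change 0.33, SE 0.0357, edgeR adjusted p = 4.6e-05). *HBP1*, a repressor of cell-cycle genes, rose from 46.6 ± 1.84 CPM to 56.3 ± 1.94 CPM (log2 fold change 0.27, SE 0.0445, edgeR adjusted p = 0.00171). *WDHD1*, a replication fork protein, fell by 0.46 on the log2 scale (edgeR adjusted p = 0.0132), and its call was lost without control ATII CM replicate 3 or without 4-OHT ATII CM replicate 2 or 3. The list's median log2 fold change was −0.00748, and *SSRP1* of the FACT complex was at −0.10 (edgeR adjusted p = 0.142).

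In the HMGN family *HMGN2* (ENSG00000198830, chr1:26472450-26475972, plus strand) was lower and the other 4 genes had log2 fold changes above 0 that did not pass. *HMGN2* was at 205, 209 and 214 CPM in control ATII CM and at 178, 188 and 191 CPM in 4-OHT ATII CM. The groups were apart, with the lowest value in 4-OHT replicate 1. The means were 209 ± 4.68 CPM and 185 ± 6.56 CPM (SD, n = 3 each), and *HMGN2* fell by 0.17 on the log2 scale (SE 0.0367, edgeR adjusted p = 0.00914). Without 4-OHT ATII CM replicate 1 the *HMGN2* log2 fold change was −0.14 and no longer passed (edgeR adjusted p = 0.065).

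*HMGN1* (ENSG00000205581, chr21:39342315-39349647, minus strand) was at 313, 317 and 322 CPM in control ATII CM and at 329, 343 and 348 CPM in 4-OHT ATII CM. All 3 4-OHT libraries were above the control libraries, but the log2 fold change of 0.10 (SE 0.033) did not pass the threshold (edgeR adjusted p = 0.0976). With no filter on low counts it did (edgeR adjusted p = 0.0458). The *HMGN2* count divided by the *HMGN1* count of the same library was 0.655, 0.659 and 0.666 in control ATII CM, against 0.542, 0.548 and 0.548 in 4-OHT ATII CM, so that the ratio of these nucleosome-binding paralogues varied little within a group and was lower in every 4-OHT library.

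*HMGN3* (ENSG00000118418, chr6:79201245-79234738, minus strand) was at 19.1, 20.2 and 20.3 CPM and at 21.5, 21.5 and 22 CPM, a log2 fold change of 0.13 (SE 0.0615, edgeR adjusted p = 0.309) with groups that did not overlap. It shares 193 of its 1014 exon bases with *HMGN3-AS1* on the opposite strand, which had 10 to 26 counts in a library, and without a stated strand setting reads of the shared bases cannot be told apart. *HMGN4* (ENSG00000182952, chr6:26538405-26546254, plus strand), a relative that is 86.4% identical to *HMGN2* over the 273 coding bases, was at 48.6, 45.5 and 46.2 CPM and at 51.0, 46.5 and 49.5 CPM (log2 fold change 0.07, SE 0.0469, edgeR adjusted p = 0.535). *HMGN5* (ENSG00000198157, chrX:81113701-81201942, minus strand) was the lowest of the family at 6.04, 6.38 and 5.6 CPM and at 6.17, 6.58 and 7.5 CPM (log2 fold change 0.17, SE 0.115, edgeR adjusted p = 0.495). Both genes overlapped between the groups, and single libraries moved their small differences. The log2 fold change of *HMGN5* was 0.09 without 4-OHT ATII CM replicate 3, and that of *HMGN4* was 0.04 without 4-OHT ATII CM replicate 1 and 0.10 without replicate 2 of the same group. None of the 4 tested linker histone H1 genes passed by edgeR, DESeq2 or limma-voom, with 0 of 4 at an unadjusted p below 0.05 in each. Of the 7 genes listed, *H1-1*, *H1-3* and *H1-5* had at most 1 count in a library and were not tested. The tested *H1-4* had at most 6 counts in a library.

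**Figure D3:**
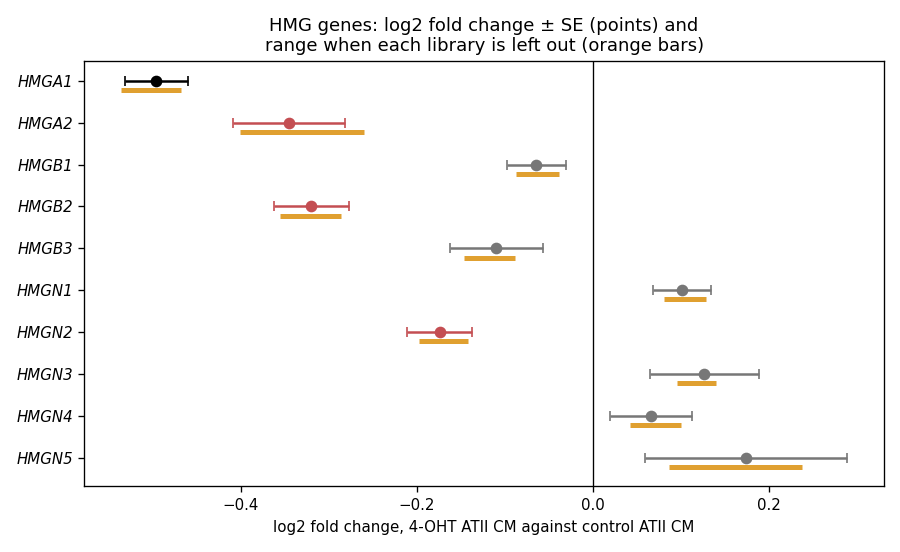
Log2 fold change of each HMG gene from control to 4-OHT ATII CM (horizontal axis; points with SE) and, as orange bars, the range when each of the 6 libraries is left out. Red points passed an edgeR adjusted p of 0.05, grey points did not, and *HMGA1*, whose value led to the choice of the family, is black; no orange bar crosses 0.

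Per length, the HMG genes covered a wide range of levels. In TPM, a level per exon length computed from the counts and the deposited lengths, the mean over all 6 libraries was 1043 for *HMGA1*, 320.3 for *HMGN2*, 262 for *HMGN1*, 166 for *HMGB1*, 153 for *HMGN4*, 87.8 for *HMGB2*, 83.3 for *HMGN3*, 35.2 for *HMGB3*, 17.6 for *HMGA2* and 10.7 for *HMGN5*. *HMGA1* ranked 107th of the 19072 tested genes, and *HMGN5* was in the upper 45.2%. Of the 9 neighbouring pairs in this order, 7 had ranges over the 6 libraries that did not overlap, whereas the ranges of *HMGB1* and *HMGN4* and of *HMGB2* and *HMGN3* overlapped. Within single libraries *HMGB1* lay above *HMGN4* in 6 of 6.

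The order of the second of these pairs depended on the medium with the deposited lengths, but not with canonical lengths. By deposited length *HMGB2* was at 97.8 ± 4.01 TPM against 79.9 ± 2.16 TPM for *HMGN3* in control ATII CM, and at 77.9 ± 2.03 TPM against 86.8 ± 1.41 TPM in 4-OHT ATII CM (SD, n = 3 each), with no overlap of the genes in either group. *HMGA1* stood at 1222 ± 48.6 TPM and 863 ± 28.4 TPM, above every other member in all 6 libraries on this scale. The deposited lengths differ from those of the canonical transcripts in GENCODE 44, with 15403 against 4117 bases for *HMGA2*, 5102 against 1271 for *HMGN1*, 2775 against 1441 for *HMGB2* and 1274 against 1943 for *HMGN4*.

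With canonical lengths, an alternative added after seeing the data, several places changed. The TPM of each HMG gene was here multiplied by its deposited length over its canonical length. All other genes kept their deposited lengths, and the values were not normalised again. The counts still came from the deposited exons, which for *HMGN4* are shorter than the canonical transcript. *HMGB2* lay above *HMGN3* in both groups, at 188 ± 7.72 TPM against 84.6 ± 2.29 TPM in control ATII CM and at 149.9 ± 3.91 TPM against 91.8 ± 1.49 TPM in 4-OHT ATII CM (SD, n = 3 each). *HMGN1* was at 1014, 1011 and 1030 TPM in control ATII CM, below *HMGA1* at 1416, 1530 and 1499 TPM. In 4-OHT ATII CM *HMGN1* was at 1064, 1082 and 1110.1 TPM and *HMGA1* at 1080.4, 1012 and 1045 TPM, so that *HMGN1* was above *HMGA1* in replicates 2 and 3. *HMGB2* also passed *HMGN4*, and *HMGA2*, at a mean of 65.8 TPM, passed *HMGB3*, at 39.8 TPM.

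**Figure D4:**
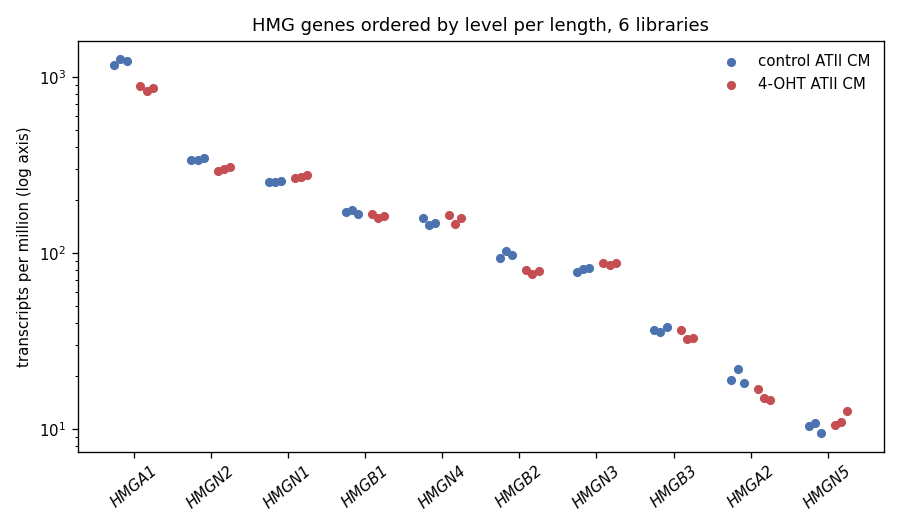
TPM (vertical log axis, with deposited gene lengths) of the 10 HMG genes in order of their mean, each point 1 library, control ATII CM in blue and 4-OHT ATII CM in red. *HMGA1* is on top in all 6 libraries, and *HMGB2* lies above *HMGN3* in blue and below it in red; neither holds with canonical transcript lengths.

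The 10 genes took up 0.174%, 0.186% and 0.18% of all counts in control ATII CM, against 0.156%, 0.152% and 0.155% in 4-OHT ATII CM. *HMGA1* made up most of that difference. Its share of the HMG counts was 38.8 ± 0.774% in control and 31.9 ± 0.489% in 4-OHT ATII CM (SD, n = 3 each), while the other 9 genes together held 0.11 ± 0.00258% and 0.105 ± 0.000891% of all counts. The HMGN genes together held 0.06 ± 0.000727% and 0.0601 ± 0.00136% of all counts, with overlapping groups, and the HMGB genes 0.0425 ± 0.00147% and 0.0393 ± 0.000868%.

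HMG genes have left many processed copies in the genome, and the values of *HMGB1*, *HMGN1* and *HMGN2* are the least certain for that reason. Reads of 150 bases were imitated by sliding a window along each canonical transcript in steps of 5 bases and searching GRCh38 for a copy elsewhere within 2 edits. The windows were single, although the libraries were paired-end, so the shares do not count pairs that a mate could place. Such a copy was found for 52.0% of the *HMGN1* windows, 47.1% of the *HMGN2* windows and 35.7% of the *HMGB1* windows, and identical copies for 18.7%, 27.9% and 11.4%. For *HMGA1* it was 3.66% of 355 windows and for *HMGB3* 2.23%, whereas the windows of *HMGA2*, *HMGB2*, *HMGN3*, *HMGN4* and *HMGN5* had none. How the read counter treated reads with several places is not given in the sources used here. The search covered the canonical transcripts, which are 4117 of the 15403 counted exon bases of *HMGA2* and 1441 of the 2775 of *HMGB2* in length, and not the other exon bases.

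Stretches of 90 coding bases show how close the most counted copies are. Capitals mark the bases at which a copy differs from its parent gene.
HMGB1, chr13:30463245-30463334, minus strand: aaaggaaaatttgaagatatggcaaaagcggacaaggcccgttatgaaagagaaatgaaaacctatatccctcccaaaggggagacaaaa
HMGB1P5, chr3:22381987-22382076, plus strand: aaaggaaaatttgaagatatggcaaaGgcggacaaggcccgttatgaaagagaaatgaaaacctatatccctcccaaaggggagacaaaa
HMGB1P6, chr15:71165160-71165249, minus strand: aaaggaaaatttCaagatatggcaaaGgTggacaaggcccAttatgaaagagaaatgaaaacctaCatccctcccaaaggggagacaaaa
HMGN1, chr21:39345185-39345274, minus strand: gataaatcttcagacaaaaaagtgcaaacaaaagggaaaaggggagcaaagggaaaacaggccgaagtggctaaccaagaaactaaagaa
HMGN1P38, chr15:92711934-92712023, plus strand: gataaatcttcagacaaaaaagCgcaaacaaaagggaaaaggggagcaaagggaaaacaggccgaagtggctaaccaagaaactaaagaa
*HMGB1P5* differs at 1 base here and *HMGB1P6* at 5, and over their aligned lengths they were 99.3% and 98.6% identical to *HMGB1*. *HMGN1P38* differs at 1 base and was 98.3% identical to *HMGN1*. *HMGN2P3* was 99.3% identical to *HMGN2*.

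The table has 157 rows of HMG pseudogenes, of which 41 had a count and 16 were tested. *HMGB1P5* and *HMGB1P6* carried most of these counts, at 4047 and 3959 over the 6 libraries. Their levels were 29.8 and 30.004 CPM and 29.8 and 29.0 CPM in control and 4-OHT ATII CM, log2 fold changes of 0.00848 and −0.04 (edgeR adjusted p = 0.964 and 0.768). All *HMGB1* pseudogene rows together came to 18.2% to 20.6% of the *HMGB1* count of a library. For *HMGN1* it was 1.28% to 1.83%, for *HMGN2* 0.462% to 0.708%, for *HMGB3* 0.24% to 0.968% and for *HMGA1* 0.0312% to 0.115%.

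None of the 16 tested pseudogene rows passed the threshold by edgeR, DESeq2 or limma-voom, with 1 of 16, *HMGN1P38*, at an unadjusted p below 0.05 in edgeR, and those of the HMGA genes and of the HMGN genes other than *HMGN1P38* were thinly counted. *HMGA1P2*, *HMGA1P3* and *HMGA1P8* were each below 0.25 CPM in both groups. *HMGN1P38* was at 3.77 and 4.65 CPM (log2 fold change 0.31, edgeR adjusted p = 0.249), and *HMGN2P3* at 0.71 and 0.478 CPM. The rows *HMGN1P1*, *HMGN1P4*, *HMGN1P36*, *HMGN1P37*, *HMGN2P4*, *HMGN2P46*, *HMGB1P10*, *HMGB1P31* and *HMGB3P24* were all below 1.5 CPM. *HMGA2*, *HMGB2*, *HMGN3*, *HMGN4* and *HMGN5* had no pseudogene counts. Of the 169 windows of *HMGN2* with a copy, 119 had it only outside the counted HMG rows. For *HMGN1* it was 79 of 117, for *HMGB1* 195 of 379, for *HMGA1* 13 of 13 and for *HMGB3* 4 of 15. Adding the pseudogene counts does not cover these windows.

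HMGA1 and HMGB2 transcripts are known to be high in dividing cells, and proliferation genes moved in the same direction. Of 25 proliferation genes tested, 24 were lower in 4-OHT ATII CM and 1 did not pass, with a median log2 fold change of −0.48. Their summed level was 839 to 889 CPM in control ATII CM and 607 to 663 CPM in 4-OHT ATII CM. *MKI67*, the Ki-67 antigen gene, fell from 41.5 ± 4.6 CPM to 24.2 ± 0.896 CPM (log2 fold change −0.78, SE 0.0699, edgeR adjusted p = 1.01e-05). *TOP2A*, the mitotic topoisomerase, fell from 98.5 ± 4.12 CPM to 66.7 ± 4.58 CPM (log2 fold change −0.56, SE 0.0495, edgeR adjusted p = 8.81e-06). *PCNA*, the replication clamp, had a log2 fold change of −0.11 that did not pass (edgeR adjusted p = 0.242). The others that passed were the mitotic genes *CENPF*, *CCNB1*, *CCNB2*, *CDK1*, *BUB1*, *BUB1B*, *AURKA*, *AURKB*, *PLK1*, *TPX2*, *NUSAP1*, *UBE2C* and *BIRC5*, the cyclin gene *CCNA2*, the replication helicase genes *MCM2* to *MCM7* and the nucleotide synthesis genes *RRM2* and *TYMS*. Their log2 fold changes ran from −0.81 for *CENPF* to −0.22 for *MCM3*. The number of proliferation genes passing ran from 19 to 24 with each library left out. Their part in the HMG differences was not tested.

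**Figure D5:**
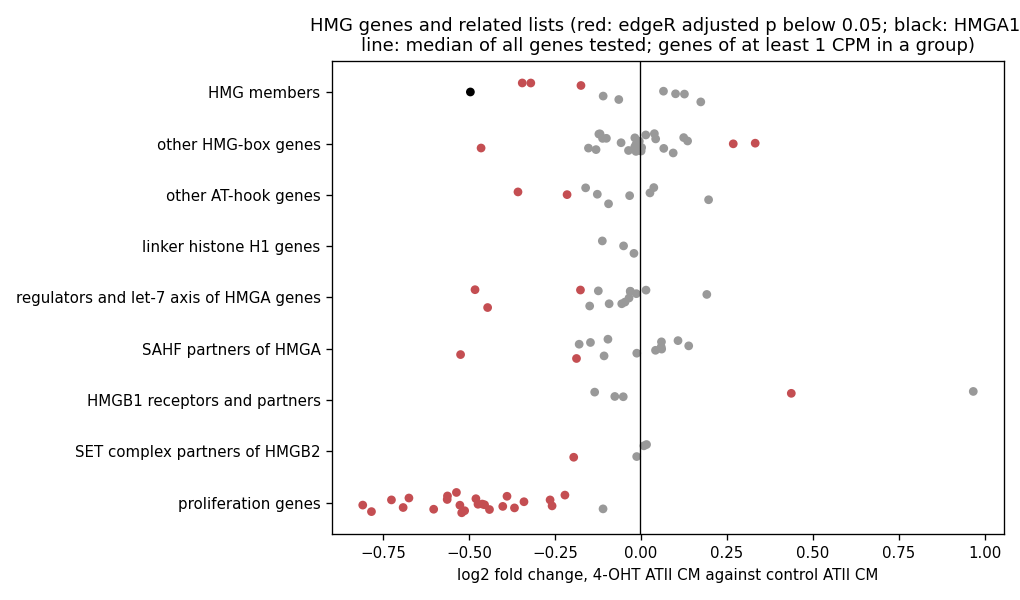
Log2 fold change from control to 4-OHT ATII CM (horizontal axis) of the HMG genes and of the genes of 8 related lists, each point 1 gene with at least 1 CPM in a group; SAHF stands for senescence-associated heterochromatin foci. Red points passed an edgeR adjusted p of 0.05, *HMGA1* is black, and the vertical line is the median of all genes tested; the proliferation genes lie to the left of that line, and most points of the other lists lie near it.

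The genes whose log2 CPM followed *HMGA1* most closely were sought among 9201 other genes with a mean of at least 10 CPM. By Pearson's r over the 6 libraries these were *TACC3* (r = 0.9995), *KIF18B* (r = 0.998), *CCND1* (r = 0.997), *CLDN1* (r = 0.997) and *ITGA3* (r = 0.997). The libraries form 2 groups, so r mostly repeats the difference between the media, and the genes share library depth and scaling. TACC3 and KIF18B act on the mitotic spindle, CCND1 is a G1 cyclin, CLDN1 is a tight junction protein and ITGA3 is an integrin subunit. *TACC3* was at 35.1, 38.1 and 37.2 CPM in control ATII CM and at 27.5, 26.1 and 27.0 CPM in 4-OHT ATII CM, the same order of libraries as *HMGA1*. *CCND1* was at 828, 852 and 844 CPM and at 757, 752 and 763 CPM. Among the 8 other HMG genes at or above that level, which leaves out *HMGN5*, *HMGB2* was nearest to *HMGA1* (r = 0.994) and *HMGN1* was farthest (r = −0.86).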

How the data were processed

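RNA-Seq was performed on polyA RNA of MRC5 cells, 3 libraries per group, paired-end with reads of 150 bases. Trim Galore (adapters and low quality), HISAT2 2.1.0 on GRCh38 and featureCounts 1.6.5 were run by the authors; the deposited table holds whole-number counts per gene and exon length (an other value, in bases). The annotation release, strand setting and treatment of multiply mapped reads are not given in the sources used here. Genes whose 6 libraries summed to 10 or more counts entered edgeR 4.0.16 (TMM, quasi-likelihood test, group only, Benjamini-Hochberg over 19072 genes, threshold 0.05); CPM use effective library sizes, and log2 CPM for correlations a prior count of 2. Another 45 rows repeat identifiers of the X and Y chromosomes. SE is the log2 fold change divided by the root of F. Alternatives used DESeq2 1.42.0, limma 3.58.1, other scalings and filters, and each library left out. Scripts were tested on simulated data. Copies were searched with minimap2 2.31. Sequences came from RefSeq tables and GRCh38.

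The members and lists were chosen with earlier results of these data known. Named genes were the 10 members, their tested pseudogenes, exon-overlapping genes, list genes past the threshold, some list genes with a textbook role beside the members, and the 5 genes most correlated with *HMGA1*. Same-numbered replicates were checked for pairing and their deviations did not move together, so no block entered the reported fit. Depth was 17691849 to 26389449 counts per library, which for *HMGA1* gave at least 11035 counts and for *HMGN5* at least 114.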

Additional observations from a re-analysis of the deposited data

How the results depend on the processing

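For the 9 HMG genes other than *HMGA1*, 119 of 121 values under alternatives kept their direction and their side of the threshold (13 alternatives for the 5 genes with no pseudogene counts to add, 14 for the rest), and none changed direction. The exceptions were *HMGN2*, lost without 4-OHT ATII CM replicate 1, and *HMGN1*, gained with no filter on low counts. *HMGA2* and *HMGB2* passed in all 13. The number of genes passing was 1090 as reported, 959 with DESeq2, 1098 with DESeq2 size factors in edgeR, 1095 with upper-quartile factors, 1132 with limma-voom, 1172 with filterByExpr and 1601 with no filter, and 533 to 1530 when a library was left out. The lowest counts came without replicate 2 (533) or 3 (615) of the 4-OHT group and without replicate 3 of the control group (663), and the highest without replicate 2 of the control group. Of the 9 HMG genes other than *HMGA1*, 3 passed, against 2 to 3 with a library left out, 4 with no filter and 3 with the replicate block. Of the related lists 36 genes passed, and 25 to 41 with a library left out. Neighbouring pairs by level whose ranges over the libraries did not overlap numbered 7, and 7 to 8 under the alternatives, but the order itself changed with canonical lengths and in CPM without length, where *HMGN1* and *HMGB1* lay above *HMGN2* and *HMGA2* lay above *HMGB2*. The cause of these shifts was not tested.

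In the labels, same-numbered replicates share only a number, and whether they shared a culture day or a batch of medium is not given. The correlations of their deviations were −0.0145, −0.104 and −0.0931, and no control library correlated best with its own number. With the replicate block 985 genes passed, against 1090 without it. Thinly counted pseudogenes limit any statement on copies, and the read counter's treatment of shared reads limits *HMGB1*, *HMGN1* and *HMGN2*.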
